A study of Mus musculus with 12 samples.

Results

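The response of HP1γ knockout cells to 30 min of phorbol 12-myristate 13-acetate (PMA) was read across all expressed genes. It rests on the 3 PMA-treated and the 3 untreated libraries that the labels assign to the knockout line, 6 of the 12 libraries in the series. All 6 come from a mouse cell line derived from embryonic fibroblasts (MEF) with the genotype HP1g/CBX3 knockout, so the deletion is shared by treated and untreated cells. The treated cells received 100 nM PMA in DMSO near confluence, and for untreated cells the labels used here name no vehicle. The other 6 libraries, the same line recomplemented for HP1g (HPg) with and without PMA, entered the same fit. They share in the count filter, the estimate of spread and the replicate block behind every knockout p-value. Their own levels are used where the lines are compared and in mean levels stated to be over all 12 libraries. Each genotype is represented by 1 line, and the labels used here do not say whether a line is 1 clone. The design text calls the 3 libraries of a group biological triplicates. The p-values therefore reflect how cultures within a line differ, with the spread estimated over both lines. An effect of the genotype and one of the particular line cannot be told apart.

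PMA is a stable mimic of diacylglycerol that activates protein kinase C and, through RAS and RAF, the MAP kinases ERK1 and ERK2. ERK signalling switches on immediate-early genes, whose transcription needs no new protein: they encode transcription factors of the FOS, JUN, EGR and NR4A families, then the phosphatases and RNA-decay proteins that switch the response off again. Protein kinase C also activates NF-kB, which induces cytokines and its own inhibitors. HP1γ, the product of Cbx3, binds methylated histone H3 and is found in heterochromatin and in the bodies of transcribed genes.

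Total counts ranged from 111458145 to 133927188 in the untreated and from 115435857 to 136187037 in the PMA-treated knockout libraries. Levels are in CPM, read counts relative to the library total scaled with TMM factors, and n = 3 libraries a group throughout. The small RNAs Rn7sk, Rpph1 and Rmrp summed to 8.59% to 16.8% of all counts without PMA and 12.5% to 19.2% with it, more in the treated library of each same-numbered pair. Summed fibroblast markers lay at 8648 to 11036 CPM untreated and 8900.1 to 10556 CPM with PMA, mostly Vim and Col1a1. Thy1 was at or near 0, and Fap stayed under 1 CPM in all 6 libraries. Of 11 tested members 2 rose: Twist2, from 29.3, 44.2 and 33.0 to 60.5, 148 and 84.4 CPM, and Cd44. The Cd44 call was lost in 3 of 6 fits that left out 1 knockout library. Of the markers of other cell types, Myod1 had no count, Cdh5 at most 2, Epcam at most 9 and Ptprc at most 12 in any knockout library. Other members of those lists were expressed, among them Acta1 (27.1 to 70.3 CPM), Col2a1 (32.1 to 38.8 CPM), Pparg (13.2 to 35.5 CPM), Runx2 (17.9 to 30.3 CPM), Erg (7.67 to 16.7 CPM) and Cdh1 (5.06 to 8.57 CPM). The summed neural list (198 to 348 CPM untreated, 181 to 229 with PMA) was mostly Map2. Only the blood and immune list did not overlap between groups (5.02 to 6.21 CPM untreated, 6.67 to 9.02 CPM with PMA). In it 7 of 11 members stayed under 1 CPM in all 6 libraries and Cd68 rose (0.85), a call lost without the replicate block and in 5 of 6 fits that left out 1 knockout library. The part of these cells in the results was not tested.

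Cbx3, the targeted gene, does not check the labels here. It stood at 35.5, 39.0 and 35.0 CPM in the untreated and 33.3, 26.9 and 35.2 CPM in the PMA-treated libraries labelled knockout, a log2 fold change of −0.21 (SE 0.11, adjusted p = 0.235, edgeR quasi-likelihood test). Against the HPg line the log2 difference was −0.08 (adjusted p = 0.704) untreated and −0.28 (adjusted p = 0.0876) with PMA. The labels used here do not say which exons the deletion removed, so "knockout" below means the libraries with that label.

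PMA changed 2221 genes in knockout cells within 30 min. Of 16630 genes tested, 1130 rose (6.79%) and 1091 fell (6.56%) at an adjusted p below 0.05 in edgeR's quasi-likelihood test, with the replicate number as a block. The directions were alike in median log2 fold change (0.60 for genes that rose, −0.60 for genes that fell) and differed in their largest changes. Among the genes that rose, 575 did so at least 1.5-fold (3.46% of those tested), 309 at least 2-fold, 107 at least 4-fold and 29 at least 16-fold. Among those that fell, 569 passed 1.5-fold (3.42%), 225 passed 2-fold, 39 passed 4-fold and 1 passed 16-fold. The cultures are bulk RNA, so a change in every cell and a change in some of the cells cannot be told apart. The counts depend on single libraries: without untreated library 2 or 3, or treated library 2 or 3, the genes that fell numbered 388, 359, 346 or 371. The genes that rose numbered 610, 670 and 700 without untreated library 3, treated library 2 and treated library 3. Scaling moved the split: 692 rose and 1974 fell with library size only, which shifted the median log2 fold change of all genes from −0.01 to −0.14. With upper-quartile scaling 949 rose and 1535 fell, and without the replicate block 468 rose and 271 fell.

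**Figure D1:**
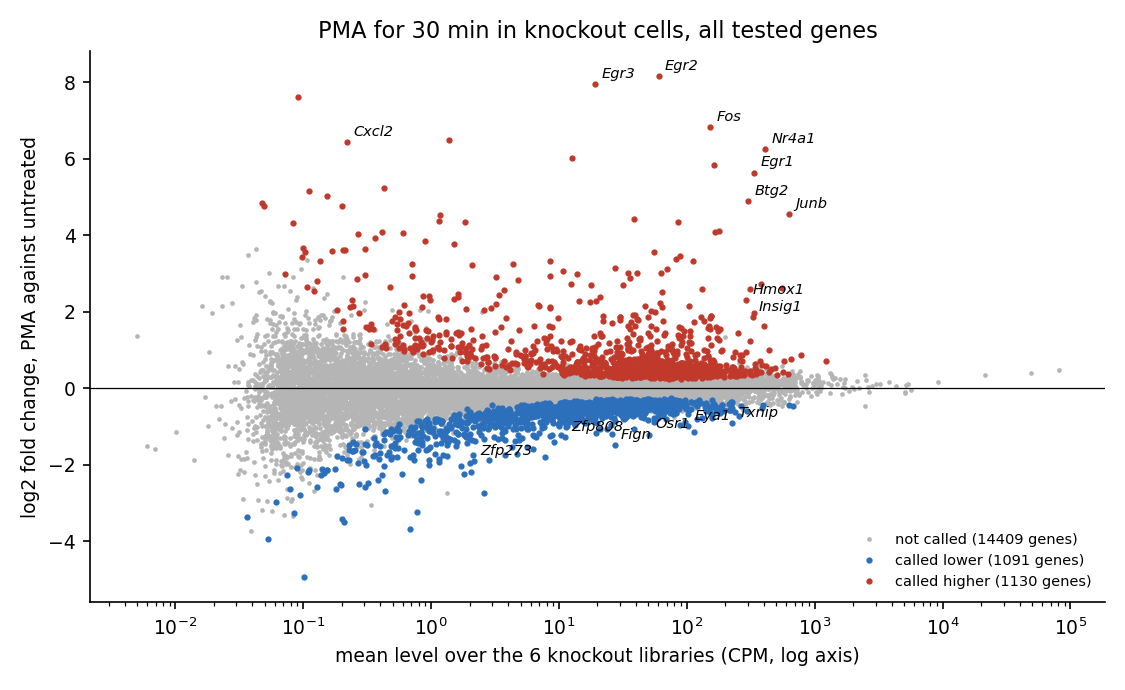
Each point is 1 of the 16630 tested genes, placed by its mean level over the 6 knockout libraries (CPM, log axis) and its log2 fold change with PMA. Increases reach a log2 fold change of 8.17 (Egr2), whereas the decreases of genes above 10 CPM stay within −1.5 (Fign, −1.49).

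Immediate-early transcription factors led the increases. This list, like those below, was chosen with earlier results of these data known, so its counts are descriptions. Of 33 tested members of this list 27 rose and none fell, against 6.79% and 6.56% of all genes, and their median log2 fold change was 1.86 against −0.01 over all genes. With any 1 knockout library left out 26 or 27 of them remained called, and without the replicate block 24. Libraries of the groups did not overlap in 26 members, where 10.6% of all genes were higher and 11.3% lower without overlap.

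The EGR zinc-finger factors bind GC-rich promoter elements, and Egr2 and Egr3 were below 1 CPM before PMA. Egr2 had 0.511, 0.294 and 0.455 CPM in the 3 untreated libraries and 111, 115 and 134 CPM in the treated ones. Its log2 fold change was 8.17 (SE 0.53, adjusted p = 3.80e-05), with no overlap of the groups. Egr3 went from 0.197, 0.115 and 0.157 CPM to 42.4, 38.0 and 34.6 CPM, a log2 fold change of 7.96 (SE 0.25, adjusted p = 2.00e-10). Egr1 was present before PMA, at 24.7, 9.71 and 9.22 CPM, with untreated library 1 above the other two, and reached 669, 703 and 600.4 CPM (log2 fold change 5.64, SE 0.41, adjusted p = 2.10e-05). Egr4 had only 5, 2 and 4 counts untreated and 455, 359 and 170 counts with PMA, so its fold is imprecise.

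FOS and JUN proteins pair to form AP-1. Fos stood at 4.19, 1.94 and 1.97 CPM untreated and 418, 250.1 and 238 CPM with PMA, with library 1 highest in both groups, a log2 fold change of 6.83 (SE 0.29, adjusted p = 5.80e-08). Fosl1, encoding FRA1, varied little within each group, with 3.48, 3.35 and 3.48 CPM untreated and 75.8, 77.3 and 70.3 CPM treated, a log2 fold change of 4.44 (SE 0.10, adjusted p = 6.08e-12). Junb was the most abundant induced factor of the list by CPM, rising from 70.4, 44.5 and 41.2 CPM to 1171, 1369 and 1089 CPM (log2 fold change 4.55, SE 0.25). The groups do not overlap in any of these genes. Jun rose less, from 64.6, 73.1 and 59.9 to 218, 265 and 229 CPM (1.85 on the log2 scale), and Jund, at a log2 fold change of 0.28, did not pass the test. Fosb (2.92), Fosl2 (1.46) and Atf3 (3.14), the last a stress-induced partner of JUN, also rose.

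Orphan nuclear receptors of the NR4A family differed from each other. Nr4a1 rose from 12.5, 12.4 and 7.36 CPM to 914, 890.0 and 626 CPM, and Nr4a3 from 0.269, 0.582 and 0.320 CPM to 25.3, 27.4 and 21.5 CPM. Their log2 fold changes were 6.26 (SE 0.21, adjusted p = 3.24e-10) and 6.03 (SE 0.22, adjusted p = 4.18e-10). Nr4a2 moved from 3.87, 4.49 and 3.96 to 9.55, 6.65 and 7.68 CPM, a log2 fold change of only 0.94 (SE 0.18, adjusted p = 0.00332). Arc, best known as a synaptic activity gene, was carried in the list and rose from 6.93, 4.74 and 4.98 to 322, 359 and 283 CPM. Myc rose from 12.7, 15.9 and 11.5 to 50.9, 49.8 and 38.2 CPM (log2 fold change 1.79, SE 0.10). Of the KLF factors, Klf10 (2.23), Klf9 (0.99), Klf5 (0.84) and Klf4 (0.60) rose and Klf2 (0.07) and Klf6 (0.23) did not pass. The calls of Klf4, Klf5 and Klf9 were lost without the replicate block. Srf itself, whose protein drives many of these promoters, had a log2 fold change of 0.25 and did not pass.

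**Figure D2:**
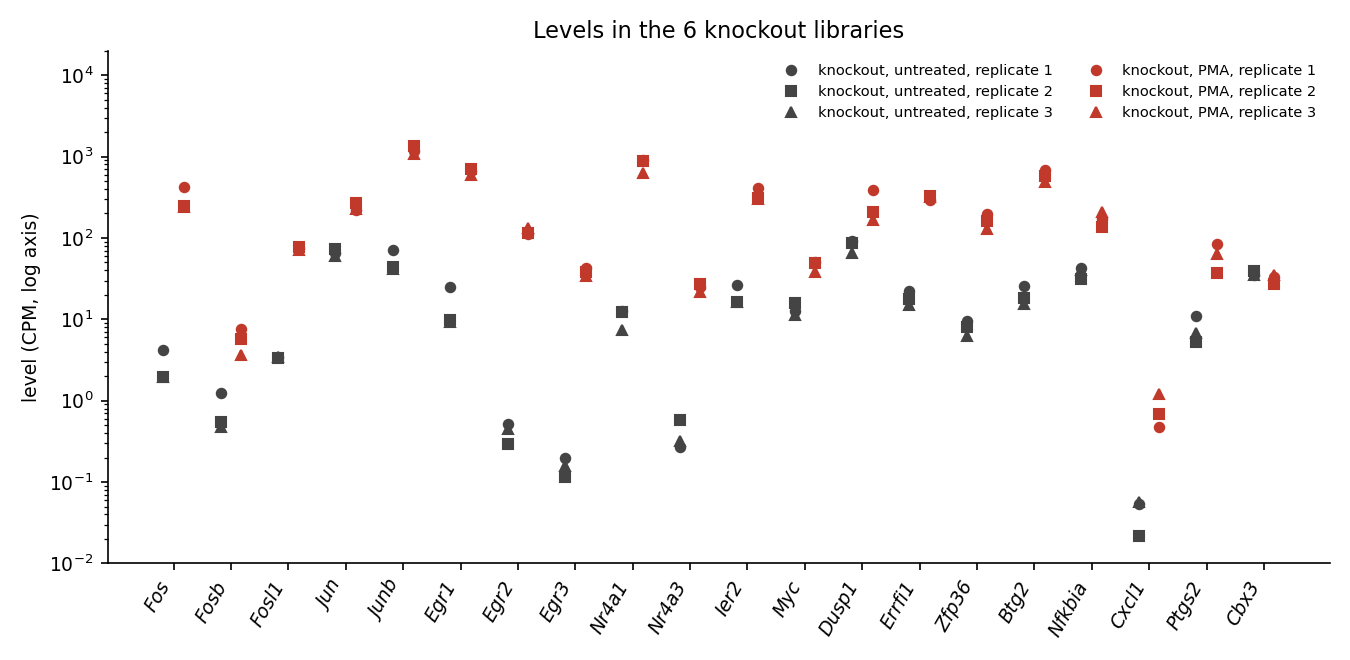
Levels (CPM, log axis) of 20 genes in the 3 untreated (grey) and 3 PMA-treated (red) knockout libraries, with symbols for the replicate number. Apart from Cbx3, every gene plotted has its 3 treated libraries above its 3 untreated ones.

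Promoter sequences of 5 induced genes are printed to show the elements named for these pathways: the CArG box bound by SRF, the CRE bound by CREB and ATF proteins, the EGR element, the kappaB site and the TATA box. Each line is the 250 bases before a RefSeq start (GRCm38.p6), 5′ to 3′ on the gene's strand, and capitals mark the matches a search of both strands found. The windows are chr12:85473640-85473889 (Fos, plus strand), chr10:67537680-67537929 (Egr2, plus strand, 1 of 5 RefSeq starts), chr7:28379229-28379478 (Zfp36, minus strand), chr1:134079156-134079405 (Btg2, minus strand) and chr12:55492648-55492897 (Nfkbia, minus strand).
Fos: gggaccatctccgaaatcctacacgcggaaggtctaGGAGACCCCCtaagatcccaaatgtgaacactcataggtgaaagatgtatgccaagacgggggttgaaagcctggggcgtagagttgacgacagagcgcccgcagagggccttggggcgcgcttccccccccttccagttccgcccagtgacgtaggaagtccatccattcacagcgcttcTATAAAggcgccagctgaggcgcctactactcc
Egr2: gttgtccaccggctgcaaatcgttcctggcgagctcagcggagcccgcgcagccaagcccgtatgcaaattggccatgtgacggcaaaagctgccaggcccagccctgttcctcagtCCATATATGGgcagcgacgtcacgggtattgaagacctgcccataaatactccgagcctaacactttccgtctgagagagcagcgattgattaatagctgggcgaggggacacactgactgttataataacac
Zfp36: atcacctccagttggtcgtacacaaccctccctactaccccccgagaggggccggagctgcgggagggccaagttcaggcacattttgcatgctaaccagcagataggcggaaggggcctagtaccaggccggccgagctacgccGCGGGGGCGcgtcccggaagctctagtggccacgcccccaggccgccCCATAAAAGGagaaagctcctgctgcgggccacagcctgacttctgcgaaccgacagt
Btg2: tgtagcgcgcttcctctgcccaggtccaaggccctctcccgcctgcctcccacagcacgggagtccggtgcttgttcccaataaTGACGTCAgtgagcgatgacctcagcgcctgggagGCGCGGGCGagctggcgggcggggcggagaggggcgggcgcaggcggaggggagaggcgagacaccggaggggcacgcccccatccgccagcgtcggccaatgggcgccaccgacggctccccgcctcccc
Nfkbia: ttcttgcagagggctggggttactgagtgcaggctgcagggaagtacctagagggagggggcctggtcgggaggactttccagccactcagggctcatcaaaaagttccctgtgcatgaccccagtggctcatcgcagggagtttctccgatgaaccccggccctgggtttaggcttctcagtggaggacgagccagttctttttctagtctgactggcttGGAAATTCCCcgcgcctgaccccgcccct
Counted from the start, Egr2 has a CArG box at −133 to −124 and Zfp36 one at −58 to −49. For Egr2, with 5 windows, one that holds a CArG box was preferred for printing, so its match follows from the choice. Fos has a TATAAA at −33 to −28 and a kappaB match at −214 to −205, and Nfkbia a kappaB match at −29 to −20. Btg2 has the CRE TGACGTCA at −166 to −159 and an EGR match at −131 to −123, and Zfp36 an EGR match at −105 to −97. These matches are descriptions of the letters, not measured binding. Elements farther upstream than 250 bases are not seen, so a gene without a match here may still have the element.

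Over all RefSeq windows of this length, 1.47% hold a CArG box, 1.55% the CRE TGACGTCA, 6.75% the AP-1 motif TGANTCA, 4.70% the EGR motif GCGNGGGCG, 7.25% a kappaB site and 12.4% TATAAA, on either strand and with overlaps allowed. Of the 16630 genes tested, 11324 had a window. Among these, a kappaB site lay before 10.7% of all tested genes, 12.7% of the genes that rose and 9.69% of those that fell. It lay before 8 of the 13 NF-kB list members that rose and had a window (61.5%), Nfkbia, Nfkb2, Rel and Tnfaip3 among them. The EGR motif lay before 10.1% of tested genes and 7 of the 18 immediate-early factors that rose and had a window (38.9%). A kappaB site lay before 6 of these 18 (33.3%) and 16 of 59 genes that rose at least 4-fold (27.1%). The CArG box lay before 1 of the 18, 4 of the 59 (6.78%), 1.9% of genes that rose and 1.5% of tested genes. The 18 factors had a mean of 1.5 windows a gene, and tested genes 1.28. The CRE lay before 2.88% of tested genes, 4.71% of those that rose and 2.15% of those that fell.

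Inhibitors of the MAP kinase cascade rose with the genes they restrain. Of 23 tested members 13 rose and none fell (median log2 fold change 0.66). Here and for each list below, the shares over all genes are 6.79% higher and 6.56% lower, with a median of −0.01. Errfi1, which blocks the EGF receptor kinase, rose from 22.5, 17.6 and 15.2 CPM to 290.4, 328 and 315 CPM (log2 fold change 4.09, SE 0.16, adjusted p = 1.26e-09). Dusp1, the nuclear phosphatase of p38, JNK and ERK, rose from 91.5, 87.6 and 64.9 CPM to 390.2, 211 and 168 CPM, treated library 1 standing highest (log2 fold change 1.60, SE 0.15). Of the ERK phosphatases, Dusp5 (2.30), Dusp6 (2.15), Dusp4 (1.33) and Dusp2 (3.84) rose. Spry2 (2.04) and Spry4 (2.18), Sprouty inhibitors of receptor signalling, rose, while Spry1 (−0.24), Dusp7 (−0.02), Spred1 (0.06) and Spred2 (0.08) did not pass. Nab2 (1.88) and Nab1 (0.73), co-repressors of EGR proteins, rose as well. Dusp10 and Rasa2 were no longer called without the block.

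Genes for proteins that shorten mRNA life rose early too. Of 17 tested members of the mRNA decay and antiproliferative list 11 rose and 1 fell (median 0.94). Zfp36, tristetraprolin, which targets AU-rich mRNAs, rose from 9.48, 8.06 and 6.27 CPM to 195, 164 and 128 CPM (log2 fold change 4.36, SE 0.17, adjusted p = 1.26e-09). Btg2, an antiproliferative partner of the CCR4-NOT deadenylase, rose from 25.4, 18.5 and 15.4 CPM to 691, 571 and 494 CPM (log2 fold change 4.90, SE 0.22, adjusted p = 8.89e-09). In both genes untreated and treated libraries are far apart. The related Zfp36l2 (1.62), Zfp36l1 (1.49), Btg3 (0.79) and Btg1 (0.64) rose less, and Xrn1, the cytoplasmic exonuclease, fell with a log2 fold change of −0.38 and an adjusted p of 0.0494, a call lost without the block, with RLE scaling and in 5 of 6 fits that left out 1 knockout library.

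Inducible kinases, small GTPases and survival genes gave 14 increases and no decrease in 24 tested members (median 0.88). Ier3, an immediate-early survival gene, rose from 21.1, 21.9 and 17.9 to 204, 218 and 194 CPM (log2 fold change 3.34, SE 0.12). Plk3 (3.01), Trib1 (3.13), Phlda1 (2.88), Sgk1 (1.96), the p53 target Cdkn1a (1.90) and the BCL2 relative Mcl1 (1.24) rose. The growth-arrest genes Gadd45a (0.17), Gadd45b (−0.12) and Gadd45g (0.42) did not pass.

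Of 26 tested growth factor and IL6 family genes 11 rose and 2 fell (median 0.46), beside 6.79% and 6.56% of all genes. Several ligands of the EGF receptor rose: Areg, amphiregulin, from 0.0717, 0.0790 and 0.164 to 1.69, 1.73 and 3.18 CPM, Hbegf from 9.86, 8.67 and 7.34 to 106, 105 and 95.7 CPM and Ereg from 5.27, 10.7 and 4.83 to 28.9, 44.3 and 32.5 CPM. Their log2 fold changes were 4.38, 3.58 and 2.40 (adjusted p = 9.31e-07, 6.62e-08 and 7.55e-08). The receptor gene Egfr itself fell with a log2 fold change of −0.55 (adjusted p = 0.0101), as did Tgfb2 with −0.47 (adjusted p = 0.0174); neither decrease was called without the block. Lif (2.94) and Clcf1 (1.26) of the IL6 family, Tgfb1 (1.25) and Vegfa (0.91) rose, whereas Il6 (0.38) and Fgf2 (−0.68) did not pass.

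NF-kB components and targets rose in 17 of 25 tested members with no decrease (median 0.69). Nfkbia, the inhibitor IκBα, rose from 42.2, 31.5 and 39.9 CPM to 169, 137 and 206 CPM (log2 fold change 2.16, SE 0.17, adjusted p = 1.47e-06), with no overlap of the groups. Nfkbiz, a nuclear IκB protein, rose from 16, 12.6 and 14.5 to 161, 130.0 and 192 CPM (3.47 on the log2 scale) and Irf1 from 38.7, 31.6 and 38.7 to 177, 203 and 304 CPM (2.61). Tnfaip3, which encodes the deubiquitinase A20, rose by 1.91 on the log2 scale. The subunit genes Rel (1.25), Nfkb2 (0.78), Relb (0.77), Rela (0.64) and Nfkb1 (0.41) rose, and Icam1 (0.10) and Sod2 (0.09), targets in many cells, did not pass.

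Of 16 tested chemokine and inflammatory cytokine genes 11 rose and none fell (median 1.35). They differed in starting level, from Cxcl2, nearly absent without PMA, to Csf1, the macrophage growth factor, at a mean of 321 CPM (log2 fold change 0.42). Ccl2, the monocyte chemoattractant, went from 2.76, 2.14 and 4.18 to 17.5, 19.7 and 36.1 CPM (log2 fold change 2.98, SE 0.20), Ccl7 from 2.65, 1.59 and 2.26 to 13.8, 15.8 and 27.8 CPM and Ccl20 from 1.18, 1.57 and 1.71 to 12.5, 11.7 and 22.4 CPM. In all 3 genes treated library 3 was the highest. The neutrophil chemokines Cxcl1 and Cxcl2 averaged only 0.786 and 0.437 CPM with PMA. Tnf, Il1a, Il1b, Csf2 and Csf3 were too low to be tested.

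**Figure D3:**
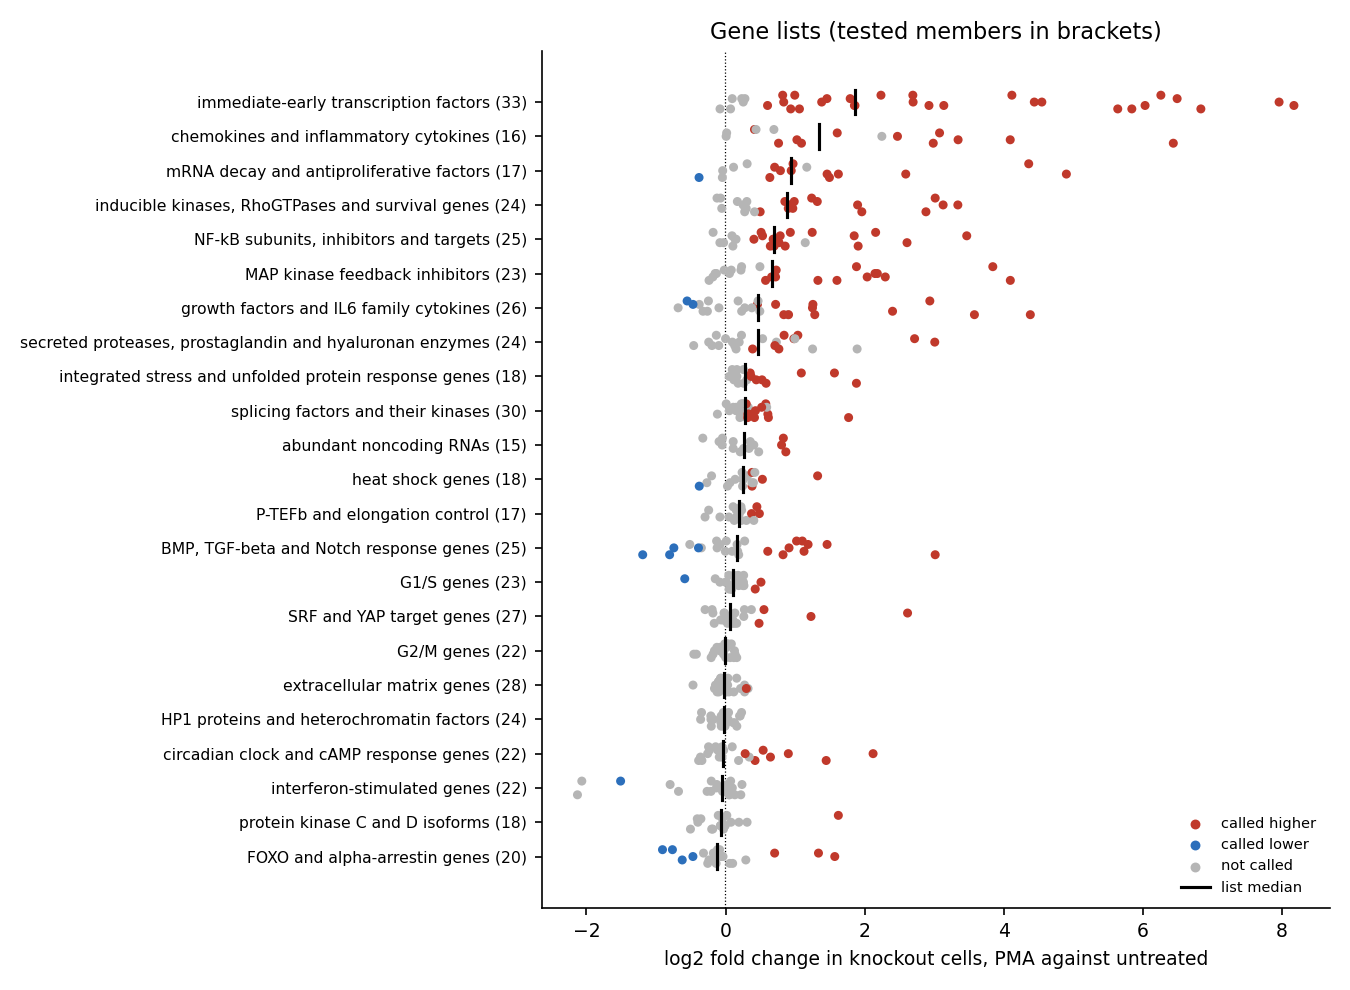
Log2 fold changes of the tested members of 23 gene lists in knockout cells, ordered by the list median (black bar), with called genes in red (higher) or blue (lower). Immediate-early transcription factors lie farthest to the right with a median of 1.86, and extracellular matrix, G2/M and heterochromatin lists centre on 0.

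Secreted proteases, prostaglandin and hyaluronan enzymes gave 8 increases in 24 tested members (median 0.46), and 4 without the block. The urokinase gene Plau (0.98) and its receptor gene Plaur (1.04) rose. Ptgs2, the inducible cyclooxygenase COX-2, rose from 10.9, 5.21 and 6.70 to 83.3, 37.3 and 64.3 CPM (3.01), while Ptgs1 (−0.20) did not pass. The matrix metalloproteinases Mmp2 (−0.13), Mmp3 (0.15) and Mmp9 (−0.10) did not pass.

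BMP, TGF-beta and Notch response genes moved both ways: of 25 tested, 9 rose and 4 fell, beside 6.79% and 6.56% of all genes. Hes1, the Notch effector, rose from 13.0, 20.4 and 9.68 to 102, 137 and 94.6 CPM (log2 fold change 3.01, SE 0.15). The TGF-beta feedback genes Smad7 (1.13), Skil (1.02), Tgif1 (1.46) and Pmepa1 (0.91), and the BMP target Id1 (1.19), rose. Other BMP-responsive genes fell: Atoh8 from 30.8, 49.6 and 28.8 to 16.6, 21.3 and 10.0 CPM (log2 fold change −1.19, SE 0.16, adjusted p = 2.91e-04), Smad6 from 110.0, 228 and 125 to 77.3, 115 and 65.1 CPM and Smad9 from 6.23, 21.7 and 11.3 to 5.25, 11.4 and 5.46 CPM. Untreated library 2 was the highest for all 3, and the groups overlapped for Smad6 and Smad9. None of the 4 decreases was called without the block.

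Genes repressed by growth signalling fell in part. Of 20 tested FOXO and alpha-arrestin genes 4 fell and 3 rose (median −0.13), where 6.56% of all genes fell and 6.79% rose. Txnip, an inhibitor of glucose uptake, fell from 299, 311 and 269 to 180.0, 184 and 115 CPM (log2 fold change −0.91, SE 0.21, adjusted p = 0.0149), and Fbxo32, atrogin-1, from 15.8, 11.1 and 18.7 to 10.1, 5.85 and 11.1 CPM (−0.76). Arrdc2 (−0.62) and Sesn3 (−0.47) also fell, while the related Arrdc3 rose by 1.57 and Ddit4 by 1.34 on the log2 scale. Only 1 of the 4 decreases was called without the block, and Fbxo32 and Ddit4 were among the calls lost.

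Some circadian clock and cAMP response genes rose: 7 of 22 tested, with none lower and a list median of −0.04. Per1, a core clock gene, went from 28.6, 22.9 and 20.1 to 130.3, 109.8 and 75.2 CPM (log2 fold change 2.12, SE 0.18), and Nfil3 (1.45), Ciart (0.90), Cry1 (0.64) and Per2 (0.54) rose less. Without the block 3 members were called. Of 18 integrated stress and unfolded protein response genes 8 rose, led by Ddit3, encoding CHOP, from 74.3, 58.0 and 67.0 to 268, 227 and 237 CPM (1.88), and 4 were called without the block. Of 30 splicing factor genes 11 rose by small amounts (median 0.28), Ccnl1, encoding cyclin L1, standing out at 1.77 (57.8, 65.3 and 62.9 CPM to 210.3, 189.6 and 235 CPM), and 5 were called without the block.

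Several groups had medians near 0. Of 27 SRF and YAP targets 4 rose and none fell (median 0.06), where 6.79% of all genes rose and 6.56% fell. The 4 were Ccn1 (2.62), F3 (1.23), Ccn2 (0.55) and Tagln2 (0.48), and Actb (0.10), Vcl (0.13) and Acta2 (0.03) did not pass. Immediate-early factors, many with promoters driven by SRF, are counted in their own list above. The following lists had 1 call or none. None of the 24 HP1 and heterochromatin genes tested was called, with Cbx1 at 0.01, Cbx5 at −0.01 and Trim28 at 0.04. None of 22 G2/M genes, 1 of 28 matrix genes (Tnc, 0.30) and 1 of 22 interferon-stimulated genes (Mx2, −1.51, adjusted p = 0.0499) was called, and the calls of Tnc and Mx2 were lost without the block. Among the kinases that PMA acts on, Prkca (−0.07), Prkcd (0.19), Prkce (−0.35) and Prkd1 (−0.41) did not pass. A gene that missed the threshold is not thereby shown to be unchanged.

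The largest decreases were smaller than the largest increases, although the median sizes were alike. Genes that fell had a median level of 12.7 CPM over the 12 libraries, genes that rose 40.5 CPM and all tested genes 14.8 CPM. The genes named by rule open with Trav13-3, a T-cell receptor variable segment annotated as a pseudogene, which fell from 1.58, 0.876 and 1.37 to 0.0523, 0.151 and 0.0735 CPM. Its neighbour in the family, Trav13-2, fell from 1.64, 1.36 and 1.24 to 0.593, 0.445 and 0.386 CPM. Counts of such near-identical segments, and of transcripts that overlap them, are uncertain. Next came the zinc-finger gene Zfp273, from 2.66, 3.79 and 3.71 to 0.846, 0.723 and 1.19 CPM (log2 fold change −1.90, SE 0.24, adjusted p = 1.28e-04), then Zfp457 (−1.86), Stpg1 (−1.78) and Zfp108 (−1.77). Il15, an interleukin supporting natural killer cells, fell from 0.753, 1.46 and 1.40 to 0.427, 0.377 and 0.313 CPM (−1.60); its call and that of Stpg1 were lost without the block and with at least 1 knockout library left out. Napb, encoding beta-SNAP of vesicle fusion, fell from 7.72, 10.6 and 9.86 to 3.20, 2.92 and 3.24 CPM (−1.59), and Fign, encoding the microtubule-severing protein fidgetin, from 28.3, 52.1 and 40.7 to 11.5, 14.9 and 16.3 CPM (−1.49, adjusted p = 0.00346).

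Genes with a Zfp symbol, most of which encode zinc-finger transcription factors, were examined as a set after these decreases had been seen. Of 344 tested 94 fell (27.3%) and 19 rose (5.52%), with a median log2 fold change of −0.26 against −0.01 for all genes. The shares are set beside other genes of the same level: between 1 and 10 CPM 57 of 131 Zfp genes (43.5%) and 295 of 2818 other genes (10.5%) fell, and between 10 and 100 CPM 32 of 169 (18.9%) and 528 of 6930 (7.62%). In HPg cells 51 Zfp genes fell and 21 rose. The count moved with the libraries used, from 41 to 77 when 1 knockout library was left out (44, 49, 41 and 54 without untreated 2, untreated 3, treated 2 and treated 3), and was 39 without the block and 9 without all replicate 3 libraries.

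Genes that fell had longer spans than genes that rose. The median genomic span was 43.7 kb for genes that fell, 18.8 kb for genes that rose and 21.7 kb for all tested. For the 107 genes that rose at least 4-fold it was 8.20 kb, with a median of 3 exons. Among protein-coding genes under 5 kb 119 of 1495 rose (7.96%) and 21 fell (1.40%). Without untreated library 1 or 3, or treated library 2 or 3, the short genes that fell numbered 12, 7, 5 or 6, and without the block 70 short genes rose and 8 fell. Among those of 100 kb or more 50 of 2006 rose (2.49%) and 275 fell (13.7%). Without untreated library 2 or 3, or treated library 2 or 3, the long genes that rose numbered 31, 23, 24 or 26, and without the block 12. The number of long genes that fell rests on the libraries compared: it was 59 without untreated library 2, 61 without untreated library 3, 58 without treated library 2, 90 without treated library 3, 173 without treated library 1 or HPg untreated library 3, 26 without the block and 1 without all replicate 3 libraries. It rose to 539 without HPg treated library 1, to 415 with offsets for GC content and transcript length, to 444 with upper-quartile scaling and to 520 with library size only.

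**Figure D4:**
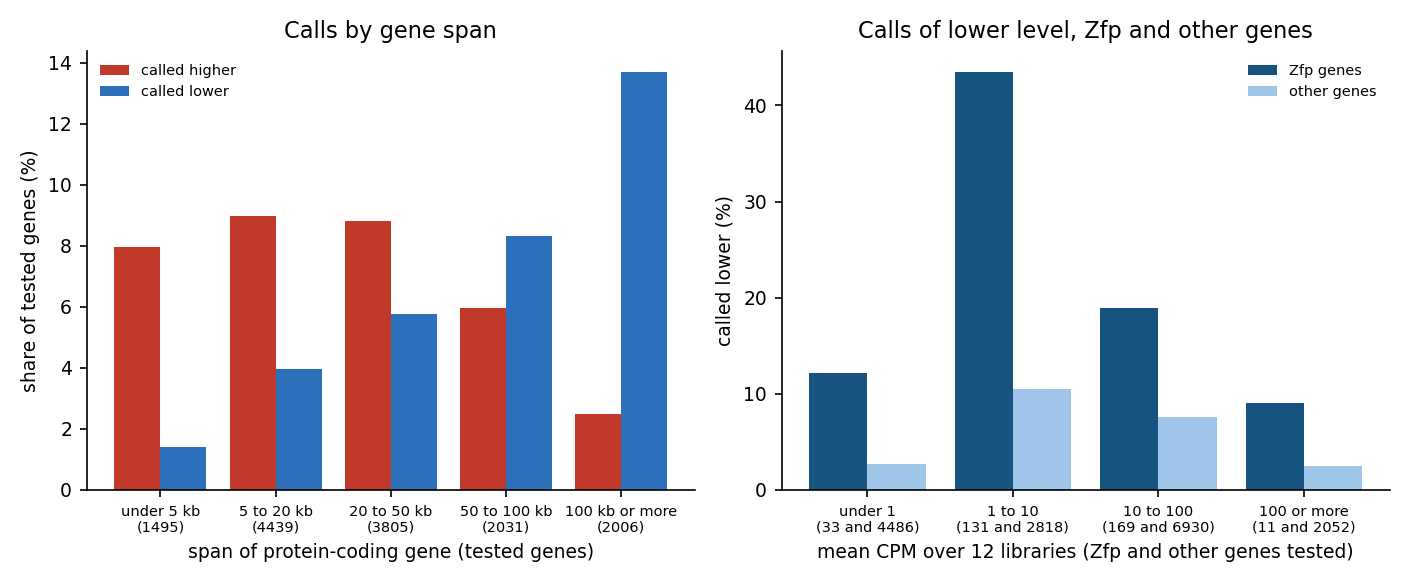
Left, share of tested protein-coding genes called higher or lower in knockout cells by genomic span. Right, share called lower among Zfp and other genes by mean level over 12 libraries; the pair of bars at 1 to 10 CPM stands at 43.5% and 10.5%.

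Noncoding genes moved in both directions, and many of those that rose lay near induced coding genes. Of 263 long intergenic RNAs tested 37 fell (14.1%) and 12 rose (4.56%). Noncoding here means every annotated class but protein-coding. It includes 455 processed pseudogenes, of which 3 rose and 2 fell, so the sets compared next are mixed. Of 69 noncoding genes that rose 32 (46.4%) lay within 10 kb of a coding gene that rose, against 6 of 155 (3.87%) of those that fell and 136 of 1764 (7.71%) of those not called. Examples are Map2k3os beside Map2k3, which encodes the p38 kinase activator MKK3, and A530013C23Rik beside Cebpb. Map2k3os went from 4.62, 5.21 and 3.22 to 15.9, 14.3 and 15.8 CPM and Map2k3 from 49.6, 61.1 and 54.7 to 189, 231 and 188 CPM. The libraries are directional, but no label used here says whether counting used the strand, so reads of such overlapping or adjacent pairs cannot be told apart. Neat1, the scaffold RNA of paraspeckles, rose from 419.9, 588 and 629.6 to 729, 1537 and 789 CPM (0.87, adjusted p = 0.00661), with treated library 2 the highest, and lost its call without the block.

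Counts over the hairpin genes of miR-221 and miR-222 rose, a cluster chosen after its values were seen. Their mature 3p strands (RefSeq, GRCm38.p6) share the seed, bases 2 to 8, shown in capitals.
mmu-miR-221-3p: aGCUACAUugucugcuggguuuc
mmu-miR-222-3p: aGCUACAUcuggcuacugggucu
Reads over the Mir221 hairpin went from 1.33, 0.445 and 0.847 to 5.68, 7.53 and 10.6 CPM (log2 fold change 3.24, SE 0.50, adjusted p = 0.00206), and over Mir222 from 0.0538, 0.223 and 0.221 to 0.646, 1.39 and 1.71 CPM (2.93). Gm14636, a noncoding gene on the same strand of chromosome X that holds neither hairpin (gaps of 10593 and 10010 bases), went from 11.3, 15 and 15.3 to 90.7, 152 and 211 CPM (3.39, adjusted p = 2.03e-07). These are long-RNA libraries, so the mature miRNAs were not measured, and whether Gm14636 and the hairpins belong to 1 transcript was not tested.

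Most of the increases, but not most of the decreases, were also called in the line that expresses HP1γ. In HPg cells 1433 genes rose (8.62%) and 1029 fell (6.19%) with PMA. These counts, on which the shares below rest, were 814 and 310 without HPg untreated library 2, 798 and 266 without HPg untreated library 3, and 959 and 389 without HPg treated library 3. Of the genes that rose in knockout cells 783 also rose in HPg cells, 69.3% of the knockout and 54.6% of the HPg increases. Of those that fell 458 also fell there, 42.0% and 44.5%. No gene was called in opposite directions. All but 1 of the 27 immediate-early factors that rose in knockout cells also rose in HPg cells; the exception was Klf4 (0.60 in knockout and 0.33 in HPg cells).

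The test of the difference between the lines called no gene (0% of 16630) in edgeR's interaction test, where 1275 genes had an unadjusted p below 0.05. The gene nearest to the threshold was Fosl1, whose log2 fold change was 4.44 in knockout and 3.47 in HPg cells. The difference was 0.96 (95% interval 0.69 to 1.24, adjusted p = 0.0541), and it passed with upper-quartile scaling (adjusted p = 0.039), with no filter on low counts (0.00299) and with a filter at 1 CPM (0.0485). DESeq2 called 14 genes, 9 with a higher and 5 with a lower log2 fold change in knockout than in HPg cells. Fosl1 (adjusted p = 8.42e-07) and Ube2v2, a ubiquitin-conjugating enzyme variant (adjusted p = 0.0256), were 2 of the 3 that the edgeR fit had tested, and the other 11 were below its count filter. Their log2 differences, such as −50.3 for Gm17198 and 41.4 for Fam183b, are sizes that such low counts cannot measure. These 11 are not read as differences between the lines.

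Genes chosen by their call in knockout cells tend to have the larger fold change there, so the following counts are descriptions. The change was larger in knockout cells for 806 of all 1130 genes that rose and 876 of all 1091 that fell. It was so for 24 of the 27 immediate-early factors that rose and 11 of 13 MAP kinase inhibitors. Of these 27 factors 11 had an unadjusted p below 0.05 for the difference, beside 1275 of all 16630 genes. Side by side, the log2 fold changes in knockout and HPg cells were 1.85 and 1.30 for Jun, 1.79 and 1.17 for Myc, 3.14 and 2.34 for Atf3, and 5.64 and 5.60 for Egr1. Egr3 went the other way (7.96 and 8.67), as did 8 of the 11 chemokine genes that rose. Among decreases, Fign (−1.49 and −0.39), Runx1t1 (−1.15 and −0.46) and Zfp521 (−0.60 and 0.01) were called in knockout cells alone, and their differences did not pass the interaction test.

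**Figure D5:**
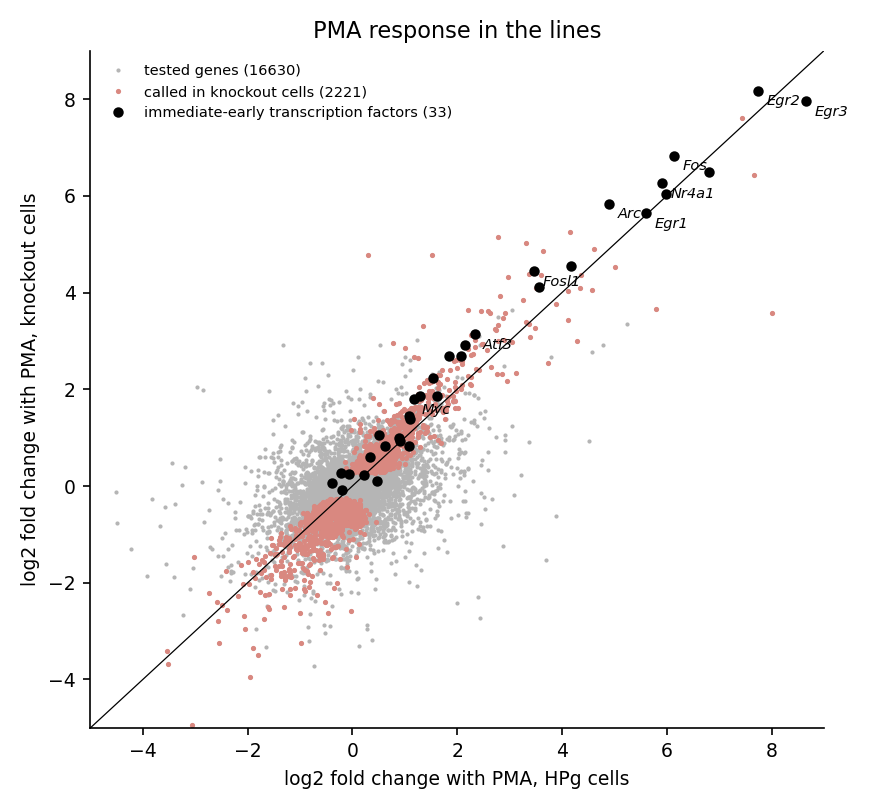
Log2 fold change with PMA of each tested gene in HPg cells (x axis) and knockout cells (y axis), with the line of equal change. Immediate-early transcription factors (black) lie near the line. Of the 27 that rose in knockout cells, by which they were chosen, 24 lie on its upper side, beside 806 of all 1130 genes that rose.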

How the data were processed

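Total RNA libraries, rRNA-depleted, directional and paired-end per the labels' protocols, were compared in 3 PMA-treated and 3 untreated knockout cultures, with 6 HPg libraries in the same fit. The authors deposited raw counts per gene for 37310 genes, 32620 of which had a symbol. The submitters' processing notes name cutadapt 1.11, STAR 2.5.0a, featureCounts 1.4.6-p3 from Subread and the build mm9. The annotation, the strand setting and the unit counted (reads or fragments) are named in no source used here, so overlapping, antisense and near-identical genes are uncertain. Groups and numbers came from the labels.

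Counts were tested in R 4.3.3 with edgeR 4.0.16 (limma 3.58.1): genes kept by filterByExpr (minimum count 10, minimum total 15), TMM scaling, a quasi-likelihood fit to all 12 libraries with the replicate number as a block, and Benjamini-Hochberg adjustment over 16630 genes at 0.05. DESeq2 1.42.0 was an alternative. The script was tested on simulated data. The replicate numbers of the labels paired the libraries: deviations of same-numbered libraries correlated at 0.309 to 0.786 over 18 pairs of groups and numbers (0.455 to 0.749 over the 3 knockout pairs), and those with different numbers at −0.715 to 0.338. A permutation test of 3 against 3 libraries cannot go below p = 0.1, so single genes rest on the fit across all genes. Libraries of a group differed by more than counting noise (chi-square per degree of freedom 82.2 to 547).

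Named genes were Cbx3, the 15 largest called increases and 15 largest called decreases whose higher group averaged 1 CPM or more, whose groups did not overlap and which had the same direction in all 3 pairs, leaving out predicted-gene, Rik and clone names. Added to these were called members of the immediate-early and feedback lists, up to 4 called members of each other list, and up to 8 called interaction genes. List members beside these are given as context, and some genes are not reported here. The comparison, members and lists were chosen with earlier results of these data known. Symbols, spans and neighbours came from GENCODE M21 and promoters from RefSeq, both on GRCm38, another build than mm9. Alternatives were other scalings, filters, tools and blocks, GC content and length offsets, and leaving out libraries.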

Additional observations from a re-analysis of the deposited data

How the results depend on the processing

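No named gene changed direction under any alternative run, but the balance of calls in knockout cells did: more genes rose (1130) than fell (1091), and more fell with DESeq2 (1382 rose, 1481 fell), without the counts of Rn7sk, Rpph1 and Rmrp (1110 and 1214), without HPg replicate 1, HPg replicate 2 or HPg treated replicate 1, and with upper-quartile scaling (949 and 1535), library size only and the fit on 1 line, below. Without the replicate block 468 genes rose and 271 fell in knockout cells (245 fell at least 1.5-fold), and 421 rose and 153 fell in HPg cells. Fitted on the libraries of 1 line with the block, 2099 rose and 2229 fell in knockout and 765 rose and 277 fell in HPg cells; this fit gives no test between the lines. With library size only 692 rose and 1974 fell in knockout cells, 982 of them at least 1.5-fold, and with upper-quartile scaling 1732 fell in HPg cells. The test between the lines called 9 genes with a higher and 5 with a lower response in knockout cells in DESeq2, 11 of these 14 below the edgeR count filter. It called 1 higher with upper-quartile scaling, with no filter on low counts and with 1 CPM in 3 libraries. With libraries left out, 303 to 1854 genes rose and 46 to 1752 fell in knockout cells (at least 1.5-fold, 303 to 642 and 46 to 752), 303 to 1886 rose and 28 to 1353 fell in HPg cells, and 0 to 1 differed between lines on the higher side and 0 on the lower. The lowest knockout counts, 303 and 46, came without all replicate 3 libraries; the cause was not tested. Without the block 29 of the 125 named genes lost their call, among them Stpg1, Il15, Klf4, Klf5, Klf9 and Neat1. Without all replicate 3 libraries 40 of the 125 did. Genes under 1 CPM rest on few counts, and 3 libraries a group limit what the test can call.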

Other observations

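The groups in this section were chosen after their values were seen, so they are descriptions. Of 25 genes of sterol synthesis and uptake tested in knockout cells, 15 rose and none fell, where 6.79% of all genes rose (median log2 fold change 0.57), and in HPg cells 12 rose. Insig1, which retains the SREBP activator in the endoplasmic reticulum, had a log2 fold change of 1.87 (adjusted p = 1.77e-07, edgeR). The synthesis enzymes Hsd17b7 (1.64), Idi1 (1.06) and Cyp51 (0.87) rose too. Srebf2 rose by 0.64, while 10 members did not pass, among them Srebf1 (0.01), Dhcr7 (0.06) and Mvk (0.12).

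Developmental regulators were among the decreases. Of 13 EYA, OSR, EBF and sine oculis homeobox genes tested 5 fell in each line and none rose. Over all genes 6.56% fell in knockout and 6.19% in HPg cells. The genes were not all the same: Osr1, Osr2 and Ebf3 were called in both lines. Eya1 and Eya4 were called in knockout cells only, and Six2 and Six5 in HPg cells only. Osr1 had log2 fold changes of −1.21 in knockout and −1.22 in HPg cells, and Ebf3 of −1.06 and −0.75. Eya4 fell in knockout cells (−0.73) and stood at 0.03 in HPg cells, a difference that did not pass the interaction test. In knockout cells, where 6.56% of all genes fell, 4 of 9 hedgehog genes fell (Ptch1, Boc, Cdon and Gli3). Of 21 TCF, WNT receptor, R-spondin and Axin2 genes 5 fell there (Tcf7l1, Tcf7l2, Ror1, Fzd8 and Rspo3). Of these only Fzd8 was also called in HPg cells, where Tcf7l2 and Ror1 stood at −0.03 and 0.03. The untreated knockout libraries spread widely for Rspo3 (mean 43.8 CPM, SD 37.4), Ror1 (97.9, SD 66.8) and Tcf7l2 (230, SD 106).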
